A study of Homo sapiens with 3 samples.

Results

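TNS4, AQP3, HR and NKAIN4 are 4 of the 51136 genes in the count table of a human pancreatic cancer cell line, PANC-1. They were picked from the comparison of the Rg3 library with the control library, as genes with 100 or more counts and among the largest falls there, so their change with Rg3 is given as a description and carries no test. The control library came from PANC-1 cells without an agent. The Rg3 library came from cells given 200 μM ginsenoside Rg3, an ingredient of ginseng, and the TAM library from cells given 50 μM tamoxifen (TAM), an antiestrogen that also inhibits the PKC pathway, each for 24 h. All cells were kept in the same serum-containing medium, and whether the control received a vehicle was not given in the sources used here. There was 1 library per condition, so no difference has a replicate check, and it was not stated whether a library pooled several cultures. The intervals below are exact 95% intervals and cover counting error only. In GENCODE 29 on GRCh38, TNS4 lies on chromosome 17 from 40475828 to 40501597, AQP3 on chromosome 9 from 33441154 to 33447633, HR on chromosome 8 from 22114415 to 22133384 and NKAIN4 on chromosome 20 from 63240784 to 63272694, each on the minus strand. The values are reads summed over a gene, and their position among exons is not known.

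Tensins are adaptor proteins of focal adhesions, where integrins link the extracellular matrix to actin. TNS4, also called CTEN, keeps the SH2 and PTB domains of the family but lacks the actin-binding region of the longer tensins. AQP3 is an aquaglyceroporin, a channel that passes glycerol as well as water and sits in the basolateral membrane of many epithelia. HR (hairless) is a nuclear corepressor with a JmjC domain that binds the vitamin D, thyroid hormone and ROR receptors and is best known from the hair follicle. NKAIN4 belongs to a small family of membrane proteins named for their interaction with the sodium pump, and the family is best known from neural tissue.

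With values as low as 10 counts, reads shared with a relative could weigh on a level, so the stretches most alike are shown. The sequences below are coding stretches of GENCODE 29 transcripts, with the longest run of bases identical to a relative in capitals. For TNS4, AQP3 and NKAIN4 they show the relative with the longest such run among those compared. NKAIN3 and the family of HR were left out.
TNS4 (exon 8, chr17:40482156-40482204, minus strand): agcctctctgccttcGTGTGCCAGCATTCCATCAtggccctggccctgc
TNS3 (exon 26, chr7:47292855-47292903, minus strand): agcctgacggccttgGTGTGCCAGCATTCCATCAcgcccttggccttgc
AQP3 (exon 5, chr9:33442339-33442385, minus strand): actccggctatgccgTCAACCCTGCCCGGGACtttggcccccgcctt
AQP10 (exon 5, chr1:154323722-154323768, plus strand): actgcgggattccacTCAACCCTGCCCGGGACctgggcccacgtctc
NKAIN4 (exon 2, chr20:63250008-63250063, minus strand): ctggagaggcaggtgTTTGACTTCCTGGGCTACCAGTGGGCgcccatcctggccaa
NKAIN1 (exon 2, chr1:31188123-31188178, minus strand): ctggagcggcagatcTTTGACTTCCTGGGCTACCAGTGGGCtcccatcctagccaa
The longest shared run was 19 bases for TNS4, 17 for AQP3 and 26 for NKAIN4, and the run of AQP3 includes the codons of an NPA box, the signature of the aquaporin pore. Of all stretches of 50 bases in the longest coding transcript, none recurred in another annotated gene for AQP3 and HR, 1.07% did for TNS4 and 7.02% for NKAIN4. The latter lie in the antisense gene FLJ16779, which overlaps NKAIN4 on the plus strand and had 3, 1 and 5 counts in the control, Rg3 and TAM libraries. Whether the authors' counting used strand was not given in the sources used here.

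RefSeq's table of promoters (GRCh38.p14) held 1 of the 4 genes, AQP3. The 250 bases before the start RefSeq gives, chr9:33447594-33447843 on the minus strand, are shown with GC boxes (GGGCGG on either strand) and a TATA box (TATAAA on either strand) in capitals.
AQP3: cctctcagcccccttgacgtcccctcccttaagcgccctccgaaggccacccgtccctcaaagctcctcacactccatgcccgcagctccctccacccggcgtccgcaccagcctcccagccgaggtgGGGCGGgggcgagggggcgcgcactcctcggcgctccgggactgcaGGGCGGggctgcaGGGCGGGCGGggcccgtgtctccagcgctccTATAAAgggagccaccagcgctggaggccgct
The window held 4 GC boxes, the last pair overlapping, against at least 1 in 42.6% of 34943 such windows and as many in 7.60%. A TATA box was present in 10.8% of windows, and in AQP3 it began 32 bases before RefSeq's start. That start lies inside the gene as GENCODE 29 places it, so that the TATA box and the end of the window fall within the GENCODE gene. The AP-1 motif TGANTCA, the E-box CACGTG and CCAAT were looked for on both strands and these letters were not in the window. They occurred in 6.59%, 6.32% and 32.0% of windows. The GC content of the AQP3 window was 73.6%, above 86.9% of windows.

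The control library had 11300766 counts, the Rg3 library 12861693 and the TAM library 11321442, all before scaling. Levels were scaled with TMM factors and are in counts-per-million (CPM), where the exact upper limit of a count of 0 was 0.322 in the control, 0.255 with Rg3 and 0.371 with TAM. The comparisons took genes reaching 10 counts in the treated or the control library. Of the 16487 genes in the Rg3 comparison, 19.5% were lower by over 1.5-fold and 24.7% higher, and among 16079 compared for TAM, 23.5% were lower and 17.5% higher. With library totals in place of TMM, the Rg3 library had 5180 genes higher and 2279 lower in place of 4071 and 3223, and the TAM library 1576 and 5234 in place of 2819 and 3774. The epithelial keratins KRT7, KRT8, KRT18 and KRT19 and VIM, which carcinoma lines of this kind express, had from 93 to 55276 counts. With Rg3 these were lower as well, KRT7 at -1.75, KRT19 at -1.53, KRT8 at -1.31, KRT18 at -0.93 and VIM at -0.81 on the log2 scale. With a smooth trend on GC content and length removed, they were at -1.07, -0.87, -0.98, -0.40 and -0.43 in the same order. Their part in the results below was not tested. Of 14 markers of acinar, islet, blood, endothelial and liver cells, 12 were at 0 counts in each library, and their summed counts were 3 in the control, 11 with Rg3 and 5 with TAM.

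All 4 genes had 107 to 203 counts in control cells and 10 to 26 with Rg3, while in the TAM library they stayed within 2-fold of the control. TNS4 had 203, 16 and 97 counts in the control, Rg3 and TAM libraries. Its scaled level in CPM was 17.7 (15.4 to 20.3) in the control, 1.11 (0.633 to 1.80) with Rg3 and 9.77 (7.92 to 11.9) with TAM. The Rg3 library was far below both others, and the TAM library lay below the control without overlap of the counting intervals. AQP3 had 107, 10 and 65 counts, or 9.33 CPM (7.65 to 11.3) in the control, 0.692 (0.332 to 1.27) with Rg3 and 6.55 (5.05 to 8.34) with TAM. For this channel the control and TAM intervals overlapped, and the Rg3 interval lay below both. Such an overlap does not show equal levels, and intervals of the fold changes with TAM are given below. HR had 126, 26 and 144 counts, or 10.99 CPM (9.15 to 13.1), 1.80 (1.18 to 2.64) and 14.5 (12.2 to 17.1). HR was the only one of the 4 genes with a higher level in the TAM library than in the control, and those intervals overlapped. NKAIN4 had 107, 23 and 70 counts, or 9.33 CPM (7.65 to 11.3), 1.59 (1.01 to 2.39) and 7.05 (5.49 to 8.91). Its order was that of AQP3, with the Rg3 library lowest and overlapping intervals for the control and TAM. In bulk RNA, fewer cells that express a gene and less RNA per cell cannot be told apart.

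**Figure D1:**
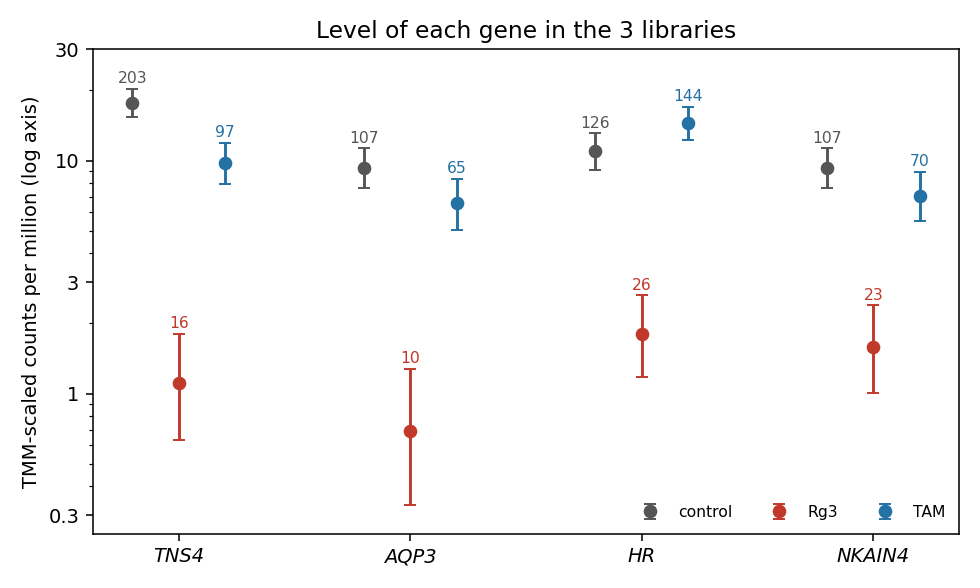
TMM-scaled CPM (log axis) of each gene in the control, Rg3 and TAM libraries, with exact 95% counting intervals and the raw counts printed above the points. Every Rg3 point lies below 2 CPM, while the control and TAM points lie between 6.55 and 17.7.

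With Rg3, TNS4 was 15.99-fold lower than in the control library, a log2 fold change of -4.00 (-4.83 to -3.26). The fall of AQP3 was 13.5-fold, or -3.75 (-4.85 to -2.82). HR was 6.11-fold lower, at -2.61 (-3.28 to -1.99), and NKAIN4 5.86-fold lower, at -2.55 (-3.27 to -1.89). The intervals of all 4 genes overlapped one another, that of TNS4 meeting those of HR and NKAIN4 only at its upper end. Such overlap does not show equal falls. TNS4 had 1.61 reads for each read of HR in the control (1.28 to 2.03) and 0.615 with Rg3 (0.308 to 1.19). For each read of NKAIN4 it had 1.90 (1.49 to 2.42) and 0.696 (0.343 to 1.38). By counting error TNS4 thus fell further than HR and NKAIN4. For the other pairs of the 4 genes the control and Rg3 intervals of the ratio overlapped. The same counts picked the genes, so this is a description. Each of the 4 genes was past 1.5-fold, as picking by large falls entails. Of all genes compared, which needed only 10 counts, 19.5% were lower by over 1.5-fold.

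Since the rule ranked genes, the values around its limits are given. Among 10961 genes with 100 or more counts in either library, TNS4 and AQP3 ranked 1 and 2, HR 4 and NKAIN4 5. Rank 3 was held by KRT81, a hair keratin that is not among the 4 genes, at -2.84 with 165, 29 and 123 counts in the control, Rg3 and TAM libraries, and 44.6% of its stretches of 50 bases recur in another gene, mainly KRT86. Just outside came the imprinted noncoding RNA H19 at -2.551, against -2.552 for NKAIN4, with 772, 166 and 1410 counts. B3GNT7, a glycosyltransferase, followed at -2.37 with 2162, 526 and 1192 counts. AQP3 and NKAIN4, at 107 counts, were close to the limit of 100 counts. Of 1633 genes with 50 to 99 counts in the higher library, 6 were lower than NKAIN4, and 2 of these, IGLV1-51 and the pseudogene ACTBP12, were lower than TNS4. Counts of IGLV1-51 were 86, 0 and 0 in the control, Rg3 and TAM libraries (0 was raised to 3 for the ranking), and those of ACTBP12 were 78, 6 and 8. Also among the 6 were KRT86 at -2.57, with 66, 14 and 40 counts, and ABCA1, a cholesterol exporter, at -2.92, with 60, 10 and 5.

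The TAM library was not used to pick these genes, but it was set against the same control library, in which the genes had to be high to be picked. TNS4 was 1.81-fold lower with TAM, at -0.86 on the log2 scale (-1.22 to -0.50), beside 23.5% of all genes lower by over 1.5-fold. AQP3 was at -0.51 (-0.98 to -0.05) and NKAIN4 at -0.40 (-0.86 to 0.04), where the interval reaches 0. Neither was past 1.5-fold, but with library totals both were, AQP3 at -0.72 (-1.19 to -0.26) and NKAIN4 at -0.61 (-1.07 to -0.17). HR was at 0.40 (0.04 to 0.76), and 0.19 with library totals. Among 9998 genes with 100 or more counts in the control or TAM library, 10.9% were lower than TNS4, 21.6% lower than AQP3, 26.1% lower than NKAIN4 and 71.9% lower than HR. Both contrasts share the control library, and a low or high count there moves both alike.

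**Figure D2:**
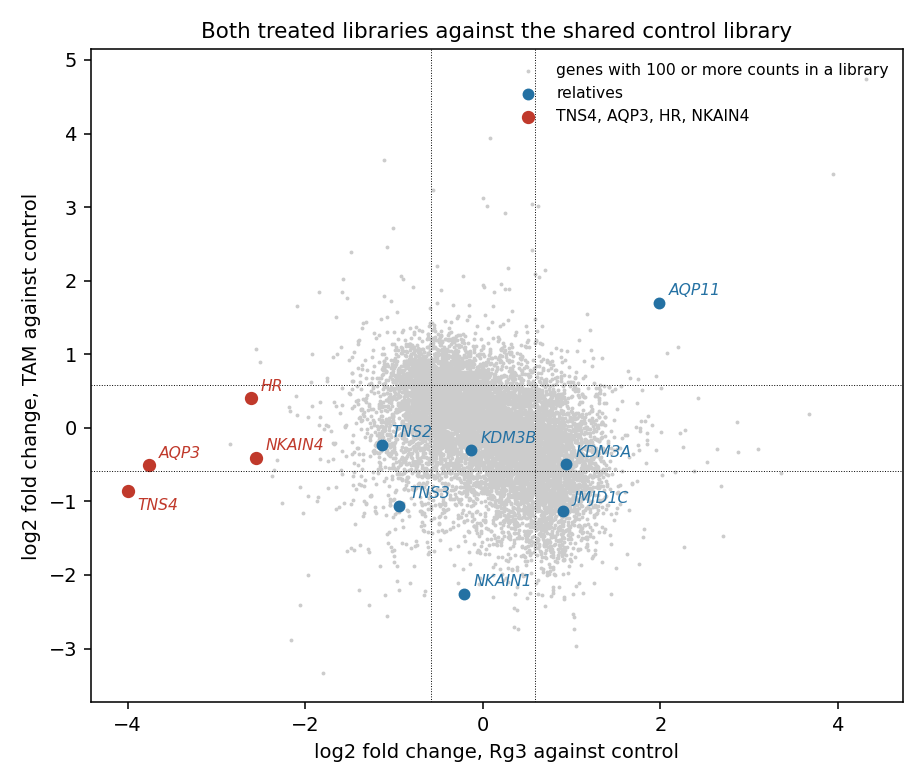
Log2 fold change with TAM (vertical axis) against that with Rg3 (horizontal axis), each against the shared control library, for genes with 100 or more counts in a library (grey), with the 4 genes in red, 7 family relatives in blue (TNS2, TNS3, AQP11, KDM3A, KDM3B, JMJD1C and NKAIN1), and dotted lines at 1.5-fold. The 4 genes lie from -4.00 to -2.55 with Rg3 but from -0.86 to 0.40 with TAM, and none of these relatives lies below -1.14 with Rg3. The change with Rg3 picked the 4 genes, so this is a description.

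Ratios between the 4 genes within a library do not depend on the scaling of libraries. TNS4 had 1.61 reads for each read of HR in the control library (1.28 to 2.03), 0.615 with Rg3 (0.308 to 1.19) and 0.674 with TAM (0.515 to 0.877). Thus TNS4 exceeded HR in the control library and was below it with TAM. HR had 1.18 reads for each read of NKAIN4 in the control (0.903 to 1.54), 1.13 with Rg3 (0.620 to 2.07) and 2.06 with TAM (1.54 to 2.78). That ratio was close in the control and Rg3 libraries, with a wide interval in the latter. For TNS4 over AQP3 the ratios were 1.90 (1.49 to 2.42), 1.60 (0.683 to 3.94) and 1.49 (1.08 to 2.08), with overlapping intervals in all 3 libraries.

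Per kilobase of transcript, the level of NKAIN4 in the control library was 6.53 CPM, that of AQP3 4.99, that of TNS4 4.35 and that of HR 1.73. Among 14433 genes with a known length and at least 10 counts in a library, these levels stood at percentile 54.8, 48.8, 45.7 and 27.2. In the Rg3 library the same genes stood at 18.1, 6.62, 4.46 and 4.75, and in the TAM library at 51.0, 44.1, 36.9 and 36.0. The low place with Rg3 comes from the counts that picked the genes and is a description.

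TNS4 was set against the other tensins and their partners at adhesions. TNS3, an actin-binding tensin, was the main tensin of these cells by level per kilobase, with 51.7, 27.0 and 24.7 CPM in the control, Rg3 and TAM libraries. It had 4518, 2972 and 1872 counts, at -0.94 on the log2 scale with Rg3 (-1.01 to -0.87) and -1.06 with TAM (-1.14 to -0.99). TNS2 had 337, 193 and 249 counts, at -1.14 with Rg3 (-1.40 to -0.88) and -0.23 with TAM (-0.47 to 0.01). Both were thus lower with Rg3, by less than TNS4, as the picking of TNS4 entails. TNS1 had at most 2 counts in any library. Of all tensin reads, TNS4 held 4.01% in the control library (3.49% to 4.59%), 0.503% with Rg3 (0.288% to 0.815%) and 4.37% with TAM (3.56% to 5.30%). Its share of the family was lower with Rg3 only, and the control and TAM intervals overlapped. For each of the 4 genes, the share with Rg3 comes from the counts that picked it and is a description.

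The 16 adhesion partners did not share the size of the TNS4 change. Of the 18 genes compared, TNS2 and TNS3 included and TNS4 left out, 6 were lower by over 1.5-fold with Rg3 and 2 higher, beside 19.5% and 24.7% of all genes. Their median was -0.18 on the log2 scale, beside 0.04 over all genes. The lower ones were TNS2, TNS3, the integrin subunit ITGA3 (-0.75) and the adhesion proteins PXN (-0.67), ZYX (-1.16) and BCAR1 (-0.80). The receptor MET, at 0.77 with 422 counts in the control and 910 with Rg3, and the kindlin FERMT2, at 1.03 with 179 and 460, were higher. With TAM, 8 were lower and 1 higher, beside 23.5% and 17.5% of all genes, with a median of -0.29, beside -0.02 over all genes. DLC1, a tumor suppressor that binds tensins, was at -1.72 (-2.08 to -1.37), MET at -1.26, VCL at -1.25, CBL at -1.20 and EGFR at -1.14, while the higher gene, FERMT1, had only 10 and 20 counts. Once the trend on base composition and length was removed, no gene of the list was past 1.5-fold with Rg3, and TNS3, VCL and DLC1 were lower with TAM.

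AQP3 was the main aquaporin of the control cells, and the rest of the family was close to 0. Of 14 aquaporin genes, 4 had a count in the control library, and after AQP3 with 107 the highest was AQP11 with 5. AQP11, an intracellular member, had 25 counts with Rg3 and 14 with TAM, at 1.99 on the log2 scale with Rg3 (0.58 to 3.73) and 1.69 with TAM (0.14 to 3.52). With 5 counts in the control, it entered the comparisons only through the treated libraries, where it had to be higher. AQP7, a glycerol channel like AQP3, had 2, 0 and 4 counts, and AQP9 and AQP10 had 0 in each library. AQP3 held 91.5% of all aquaporin reads in the control library (84.8% to 95.8%), 25% with Rg3 (12.7% to 41.2%) and 75.6% with TAM (65.1% to 84.2%). In the Rg3 library AQP11 thus had more reads than AQP3, 25 against 10, and a higher level per kilobase, 0.804 against 0.370 CPM.

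Genes that make or use glycerol were compared because AQP3 carries it. With AQP11 they made 8 genes compared for Rg3, of which 4 were higher by over 1.5-fold and 1 lower (24.7% and 19.5% of all genes), and 7 compared for TAM, of which 2 were higher and 5 lower (17.5% and 23.5%). Glycerol kinase, GK, with 9 and 19 counts, is among the higher ones with Rg3 and passed the filter through the Rg3 library alone. GPD2, the mitochondrial glycerol-3-phosphate dehydrogenase, was at 0.75 with Rg3 (0.52 to 0.99) and -1.22 with TAM (-1.60 to -0.85), from 223 counts in the control to 474 and 83. GPD1L had 329, 567 and 142 counts, at 0.45 and -1.005. The triglyceride lipase PNPLA2 had 1955, 2049 and 1059 counts, at -0.27 with Rg3 and -0.68 with TAM. Without the trend on GC content and length, AQP11 (2.02) and the lipase MGLL (0.90, from 8 to 13 counts) were past 1.5-fold with Rg3, GPD2 was at 0.09, and PNPLA2 took the other sign, at 0.47 (0.38 to 0.56).

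**Figure D3:**
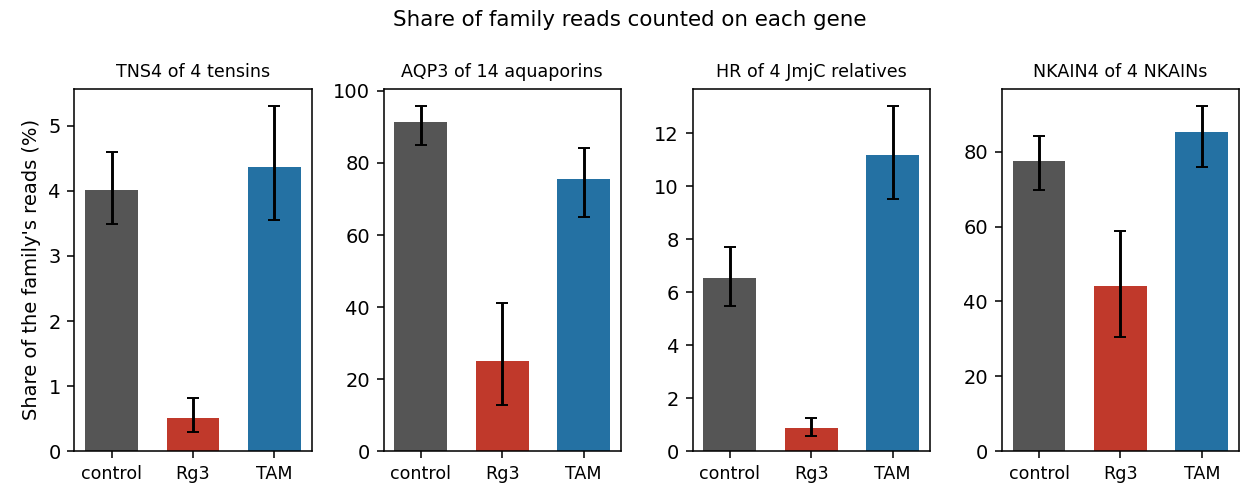
Share of the reads of each family (%, bars from 0) that were counted on TNS4, AQP3, HR and NKAIN4 in the control, Rg3 and TAM libraries, with exact 95% binomial intervals and a scale of its own for each family. In each panel the Rg3 bar is the lowest, from 0.503% for TNS4 to 44.2% for NKAIN4. The Rg3 counts are among those that picked the genes, so this is a description.

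HR was lower with Rg3 while none of its 3 JmjC relatives was past 1.5-fold lower there. KDM3A, a histone H3 lysine demethylase, had 479 counts in the control, 1152 with Rg3 and 294 with TAM, at 0.93 (0.78 to 1.09) and -0.50 (-0.71 to -0.28). KDM3B was at -0.13 and -0.31, and JMJD1C at 0.91 and -1.13. With the trend removed JMJD1C was at 0.25 and -0.30, within 1.5-fold of the control in both, and KDM3A at 0.59 and -0.06. Of the reads on these 4 genes, HR held 6.53% in the control library (5.47% to 7.72%), 0.861% with Rg3 (0.563% to 1.26%) and 11.2% with TAM (9.52% to 13.04%). The relatives have a lower GC content than HR, from 39.9% to 50.7% against 65.7%, and the fold changes of all genes went with GC content, so that the part of base composition in these shares was not tested.

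The nuclear receptors and corepressors that HR works with were within 1.5-fold of the control for 6 of 11 genes with Rg3 and 7 of 10 with TAM. VDR, the vitamin D receptor, had 20, 22 and 17 counts, at -0.20 with Rg3 (-1.14 to 0.75) and -0.03 with TAM (-1.05 to 0.98). The thyroid hormone receptor THRA had 434, 339 and 424 counts, at -0.69 and 0.17, and THRB had 82, 166 and 90, at 0.68 and 0.34. RORA had 1, 12 and 2 counts and entered the Rg3 comparison through that library alone. Of the 14 relatives and partners, 4 were higher and 3 lower by over 1.5-fold with Rg3 (median 0.03), close to the 24.7% and 19.5% of all genes. Of the 13 compared for TAM, 1 was higher and 3 lower (median -0.03), beside 17.5% and 23.5%. Under library totals 1 gene was lower in the Rg3 comparison, and for TAM 0 were higher and 5 lower.

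NKAIN4 had the highest level per kilobase of its family in each library. With Rg3 its 23 reads were no more than the 24 of NKAIN1, and their counting intervals overlapped. NKAIN1 had 22, 24 and 4 counts, at -0.21 with Rg3 (-1.11 to 0.70) and -2.25 with TAM (-4.25 to -0.69). NKAIN3 had 9, 5 and 8 counts, and NKAIN2 had 0 in each library. NKAIN4 held 77.5% of the family's reads in the control library (69.7% to 84.2%), 44.2% with Rg3 (30.5% to 58.7%) and 85.4% with TAM (75.8% to 92.2%). The Rg3 interval did not overlap that of the other libraries, as the picking of NKAIN4 by its fall with Rg3 favours. The control and TAM intervals overlapped.

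Of the beta subunits of the sodium pump, which NKAIN proteins are named for, ATP1B1 and ATP1B3 were above NKAIN4 in counts in each library. ATP1B1 had 636, 946 and 1122 counts, at 0.24 with Rg3 and 1.03 with TAM, and ATP1B3 had 1332, 2210 and 1316, at 0.40 and 0.19. Of 7 genes of the list compared, NKAIN1, FXYD1 and FXYD5 included, 0 were higher with Rg3 and 3 lower, against 24.7% and 19.5% of all genes. With TAM 2 were higher and 2 lower, against 17.5% and 23.5%. The pump regulator FXYD1 had 23, 10 and 21 counts and was among the lower ones with Rg3, at -1.54 (-2.77 to -0.41).

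Fold changes went with base composition across all genes. Taking the 11583 genes that reached 50 counts, the Rg3 log2 fold change went down with the GC content of the transcript (Spearman correlation, -0.82), and across 11022 genes that with TAM went up with it (0.52) and down with length (-0.48). These genes share their libraries and are not independent. The GC content was 57.9% for TNS4, 56.6% for AQP3, 65.7% for HR and 61.4% for NKAIN4, all above the median of 48.9% over 10231 genes with 100 or more counts. Among the 4, TNS4 and AQP3 had the lower GC content and the larger falls. The 4 were picked by these falls, so this is a description, and its link to GC content was not tested. After removal of a smooth trend on GC content and length, the log2 fold change with Rg3 was -3.47 for TNS4, -3.24 for AQP3, -1.81 for HR and -1.90 for NKAIN4. These ranked 1, 2, 7 and 4 among the 10231 genes. The part removed was -0.53 for TNS4, -0.51 for AQP3, -0.80 for HR and -0.66 for NKAIN4. With TAM, removal of the trend left TNS4 at -1.03, AQP3 at -0.92, NKAIN4 at -0.91 and HR at 0.37, so that AQP3 and NKAIN4 were then past 1.5-fold as well.

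**Figure D4:**
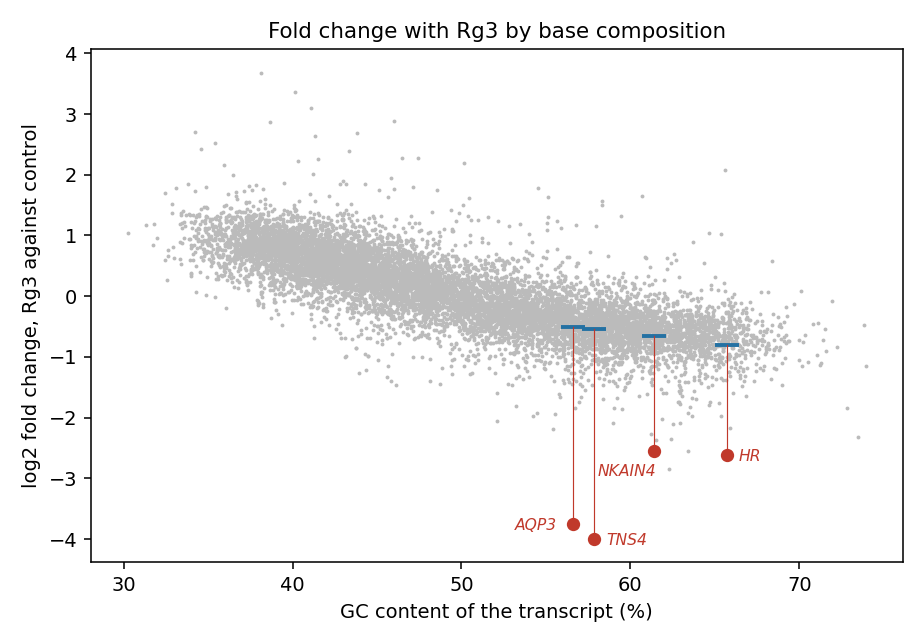
Log2 fold change with Rg3 against the GC content of the transcript (%), for genes with 100 or more counts in the control or Rg3 library (grey), with the 4 genes in red and, as a blue bar, the part of their change removed as a trend on GC content and length. The blue bars lie between -0.80 and -0.51, and the red points from -4.00 to -2.55.

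The genes nearest in pattern were found by the Euclidean distance between pairs of log2 fold changes with Rg3 and TAM, over the 3 libraries. The change with Rg3, which picked the 4 genes, is an axis of this distance, so the nearest genes are a description. TNS4 and AQP3 ranked 1 and 2 by that change. For TNS4 the nearest gene was AQP3, at a distance of 0.42, and the reverse also held. KRT81 came next for both, at 1.32 from TNS4 and 0.96 from AQP3, and NKAIN4 after it, at 1.52 and 1.21. The nearest genes to HR were the chemokine CX3CL1 (0.45), BEGAIN (0.48) and IGFBP4 (0.50), which binds insulin-like growth factors, and those to NKAIN4 were the coactivator CITED4 (0.24), ELFN2 (0.26) and B3GNT7 (0.30).

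None of the nearest expressed genes on the chromosome, chosen by position, fell as far with Rg3 as its neighbour among the 4. The picking of the 4 by their large falls favours this, so it is a description. Still, IGFBP4, NOL6, NUDT18, BIRC7 and ARFGAP1 were lower by over 1.5-fold, beside 19.5% of all genes. IGFBP4, 18097 bases from TNS4, was the closest in size of change, at -2.11 with Rg3 and 0.43 with TAM, from 11728 counts in the control to 3431 and 13649. SMARCE1 on the other side was at 0.09 and -0.34. The neighbours of AQP3, NFX1 and NOL6, were at 0.26 and -0.73 with Rg3. For HR, NUDT18 was at -0.88 and REEP4 at -0.50 with Rg3. BIRC7, which lies 277 bases from NKAIN4, was at -0.98 with Rg3 and 0.91 with TAM, and ARFGAP1, 91 bases away on the other side, was at -0.71 and 0.59. After correction for base composition and transcript length, only IGFBP4 stayed past 1.5-fold with Rg3, at -1.42. BIRC7 was then at -0.25, NOL6 at -0.21, NUDT18 at -0.18 and ARFGAP1 at -0.02.

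The direction of each of the 4 genes in both contrasts was kept under all 6 alternatives tried. With Rg3 the range was from -4.02 to -3.47 for TNS4, from -3.78 to -3.24 for AQP3, from -2.63 to -1.81 for HR and from -2.57 to -1.90 for NKAIN4. With TAM it was from -1.07 to -0.82 for TNS4, from -0.92 to -0.48 for AQP3, from 0.19 to 0.43 for HR and from -0.91 to -0.37 for NKAIN4. By counting error the sign of NKAIN4 with TAM is the least settled of these, since its interval as reported includes 0. That of HR with TAM includes 0 with library totals, from -0.17 to 0.55.

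**Figure D5:**
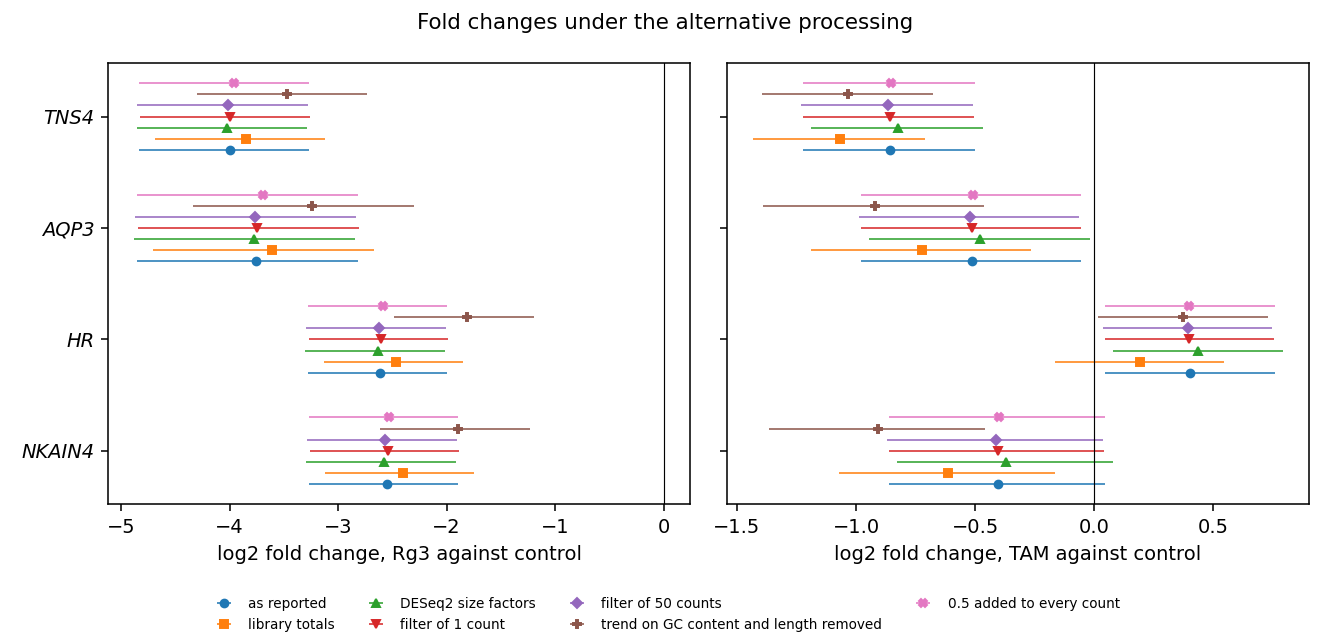
Log2 fold change of each gene with Rg3 (left) and TAM (right) against the control library, as reported and under the 6 alternatives, with exact 95% counting intervals as horizontal lines. The Rg3 values lie from -4.02 to -1.81 and each interval ends below -1, while with TAM the values of AQP3, HR and NKAIN4 lie within 1 of 0.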

How the data were processed

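Total RNA of PANC-1 cells was sequenced on an Ion Proton instrument as 3 libraries, 1 per condition. Per the methods, the authors used FAST-QC, TopHat and MAQ, and the submitters' processing notes name GRCh38. The deposited values are unnormalized read counts of 51136 genes, listed by symbol. The counting tool, annotation and versions were not given in the sources used here.

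Log2 fold changes were computed from these counts in R 4.3.3 with TMM factors from edgeR 4.0.16 (1.01 for control, 1.12 for Rg3, 0.877 for TAM) over genes with at least 10 counts. Counts under 3 were raised to 3. Intervals are exact (Clopper-Pearson for folds and shares, Poisson for levels). With 1 library per condition limma, which the methods name, could not be fitted, and no p-value is given. A count past 1.5-fold rests on the fold alone. GC content and length are those of the longest coding transcript of a gene name in GENCODE 29, found for 86.6% of genes compared for Rg3 and 87.2% for TAM. The trend was a loess fit with span 0.3. The steps were tested on simulated data.

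The members and gene lists were chosen with earlier results of these data known. Named were the 4 genes, those around the rule's limits, the 3 nearest in pattern to each, and list genes by role. The values of some list genes are not reported here. Neighbours, and genes with 50 to 99 counts, were added after the values were seen. The alternatives were library totals, DESeq2 1.42.0 size factors, filters of 1 and 50 counts, removal of the trend, and 0.5 added to each count.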

Additional observations from a re-analysis of the deposited data

How the results depend on the processing

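No paired analysis was possible because there is only 1 library per condition, and no condition has a replicate to leave out. Shares within a family and ratios within a library do not change with scaling. Library totals shifted the median of all genes by 0.15 with Rg3 and -0.21 with TAM. The value of HR with Rg3 left its counting interval with the trend removed (-1.81), as did NKAIN4 with TAM (-0.91). The cause of these moves was not tested.

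For counts past 1.5-fold, library totals gave 0 lower with Rg3 for aquaporins and glycerol metabolism, for HR relatives and partners 1 lower with Rg3 and, with TAM, 0 higher and 5 lower, 1 higher with TAM for the sodium pump list, and 1576 of all genes higher with TAM. DESeq2's size factors gave 2 higher with TAM for the tensin list. A filter of 50 counts, which leaves fewer genes, gave 0 higher with TAM for the tensin list, 2 higher with Rg3 and 0 higher with TAM for the aquaporin list, and 1 lower with TAM for the pump list. With the trend removed, the tensin list had 0 higher and 0 lower with Rg3 and 3 lower with TAM, the aquaporin list 2 higher and 0 lower with Rg3 and 3 lower with TAM, the HR list 2 higher and 0 lower with Rg3 and 1 lower with TAM, and the pump list 1 lower with Rg3. Over all genes, 1389 were then higher with Rg3 and 1262 lower, against 1799 and 2112 with TAM. The changes of GK (-0.0443), GK5 (-0.0386) and LIPE (0.0393) with Rg3, past 1.5-fold as reported, took the other sign there. Of all values of named genes other than the 4, called or not, 14 of 52 with Rg3 and 10 of 50 with TAM turned sign with the trend removed, PNPLA2 with Rg3 among them (0.47), and 1 and 7 did with library totals. Of these 102 values, 75 moved beyond their interval with the trend removed and 49 with library totals. The 75 leave out GK, GK5 and LIPE with Rg3, of which GK5 and LIPE also left their intervals. No value moved beyond its interval with the remaining alternatives, of which the filter of 50 counts gave 88 values.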
